A study of Homo sapiens with 14 samples.

Results

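KMT2D peaks near the KMT2D gene itself and near 4 genes of enhancer cofactors, KMT2C, EP300, CREBBP and NCOA6, were examined in SCC23, an established line of head and neck squamous cell carcinoma (HNSCC). A peak belonged to a gene when its summit lay within 50 kb of the gene span. Only 4 of the 13808 peaks in the list did so, and all 4 lay around NCOA6. The windows of KMT2D, KMT2C, EP300 and CREBBP held 0 peaks each.

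The list came from 1 ChIP-seq library, made with an antibody to KMT2D in KMT2D-WT SCC23 cells that were deprived of glucose. The labels call this a low glucose condition and give no duration for this library. The study used this library to find where KMT2D sits on chromatin when glucose is withdrawn. There were no replicates. The list cannot show how much of any signal depends on KMT2D, because the 14 samples include no KMT2D ChIP from KMT2D-KO cells. No gene expression was measured in these files, so the cell type label was not checked against marker genes.

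KMT2D and its close relative KMT2C are large histone methyltransferases that place monomethylation on histone H3 lysine 4, mainly at enhancers. NCOA6 is a subunit of the complexes that both enzymes form. EP300 and CREBBP are a second pair of related enzymes, acetyltransferases that place H3K27ac, the mark of active enhancers. All 5 products therefore work at enhancers together with other coactivators, and the question here was whether the genes that encode them carry KMT2D peaks themselves.

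In GRCh37 coordinates, counted from 1, the KMT2D span ran over chromosome 12 positions 49413000 to 49449000. The KMT2C span, the longest at 301 kb, ran over chromosome 7 positions 151832000 to 152133000. EP300 lay at chromosome 22 positions 41489000 to 41576000, CREBBP at chromosome 16 positions 3775000 to 3930000 and NCOA6 at chromosome 20 positions 33303000 to 33413000. EP300 is on the plus strand and the other genes are on the minus strand. The spans are given to 1 kb, and at least that error applies to every distance below. In these distances the gene start is the upstream edge of the span, which was not compared with annotated transcription starts.

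The gene starts are shown because promoters are the regulatory sequence nearest to these genes that can be printed here. The sequences are the 250 bases before the transcription start of the 4 genes with an entry in the RefSeq promoter table (GRCh38.p14), written 5′ to 3′ on the strand of the gene. Capitals mark GC boxes, the letters GGGCGG on either strand, bound by SP family factors. They lie at chr12:49060795-49061044 (KMT2D, minus strand), chr7:152436004-152436253 (KMT2C, minus strand), chr22:41092342-41092591 (EP300, plus strand) and chr16:3880714-3880963 (CREBBP, minus strand, the outermost of 2 listed starts). These positions are of another build than the peaks and were not compared with them. NCOA6 had no entry.
KMT2D: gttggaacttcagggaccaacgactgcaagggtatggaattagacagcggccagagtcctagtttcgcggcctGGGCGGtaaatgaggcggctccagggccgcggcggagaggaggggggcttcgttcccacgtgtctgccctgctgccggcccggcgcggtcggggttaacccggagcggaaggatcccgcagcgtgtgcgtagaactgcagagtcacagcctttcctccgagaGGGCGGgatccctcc
KMT2C: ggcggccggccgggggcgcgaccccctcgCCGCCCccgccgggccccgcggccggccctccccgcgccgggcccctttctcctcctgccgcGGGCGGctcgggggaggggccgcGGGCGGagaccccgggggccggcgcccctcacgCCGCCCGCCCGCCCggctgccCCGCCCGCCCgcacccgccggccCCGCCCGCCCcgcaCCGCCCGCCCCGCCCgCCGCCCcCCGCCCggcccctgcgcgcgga
EP300: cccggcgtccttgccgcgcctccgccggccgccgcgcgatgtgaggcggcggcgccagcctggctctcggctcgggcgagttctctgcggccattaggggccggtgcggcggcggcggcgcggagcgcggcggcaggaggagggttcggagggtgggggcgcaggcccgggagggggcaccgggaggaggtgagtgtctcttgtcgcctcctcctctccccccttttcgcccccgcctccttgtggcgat
CREBBP: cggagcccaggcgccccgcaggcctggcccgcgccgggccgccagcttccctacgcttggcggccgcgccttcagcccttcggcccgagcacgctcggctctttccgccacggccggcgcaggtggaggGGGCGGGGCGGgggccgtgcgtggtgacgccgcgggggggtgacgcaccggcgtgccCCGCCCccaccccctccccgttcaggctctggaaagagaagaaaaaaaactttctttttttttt

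All 4 sequences were above the median in GC content, KMT2D by the least. GC content was 65.6% before KMT2D, 92.0% before KMT2C, 76.8% before EP300 and 72.4% before CREBBP, against a median of 58.0% over 35114 such windows of the table. The share of these windows with a lower GC content was 68.6%, 99.99%, 92.5% and 84.6% in the same order. The number of CpG dinucleotides was 23, 48, 35 and 31, against a median of 11. GC boxes, with overlapping matches counted separately, numbered 2 in KMT2D, 15 in KMT2C, 0 in EP300 and 3 in CREBBP, and 42.6% of all windows held at least 1. An E-box, CACGTG, occurred once in KMT2D and in none of the other 3 sequences, and 6.35% of all windows held one. The AP-1 motif TGANTCA (6.57% of all windows) and the ETS motif CCGGAAG (8.52%), searched on both strands, had no match in the 4 sequences. These starts were described by sequence alone, since their positions were not compared with the peaks.

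None of the 5 genes had a summit within 2 kb of its start, taken as the edge of the span. The share of all gene starts with such a summit was not computed, since GRCh37 gene positions were not used here, so the count of 0 cannot be read against a background. The summit nearest to a start lay 27.2 kb away for NCOA6, 50.5 kb for KMT2D, 187.2 kb for EP300, 303.8 kb for CREBBP and 681.6 kb for KMT2C. A summit that is missing from the list is not a site without KMT2D. The genome-wide background was 2.88 fragments. At that background at least 11 fragments, a fold enrichment of 2.48, were needed to pass the p-value threshold of 0.01. More were needed where the background was higher, and the background in windows without a peak is not known. Occupancy below the number needed was not detectable at this depth.

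**Figure D1:**
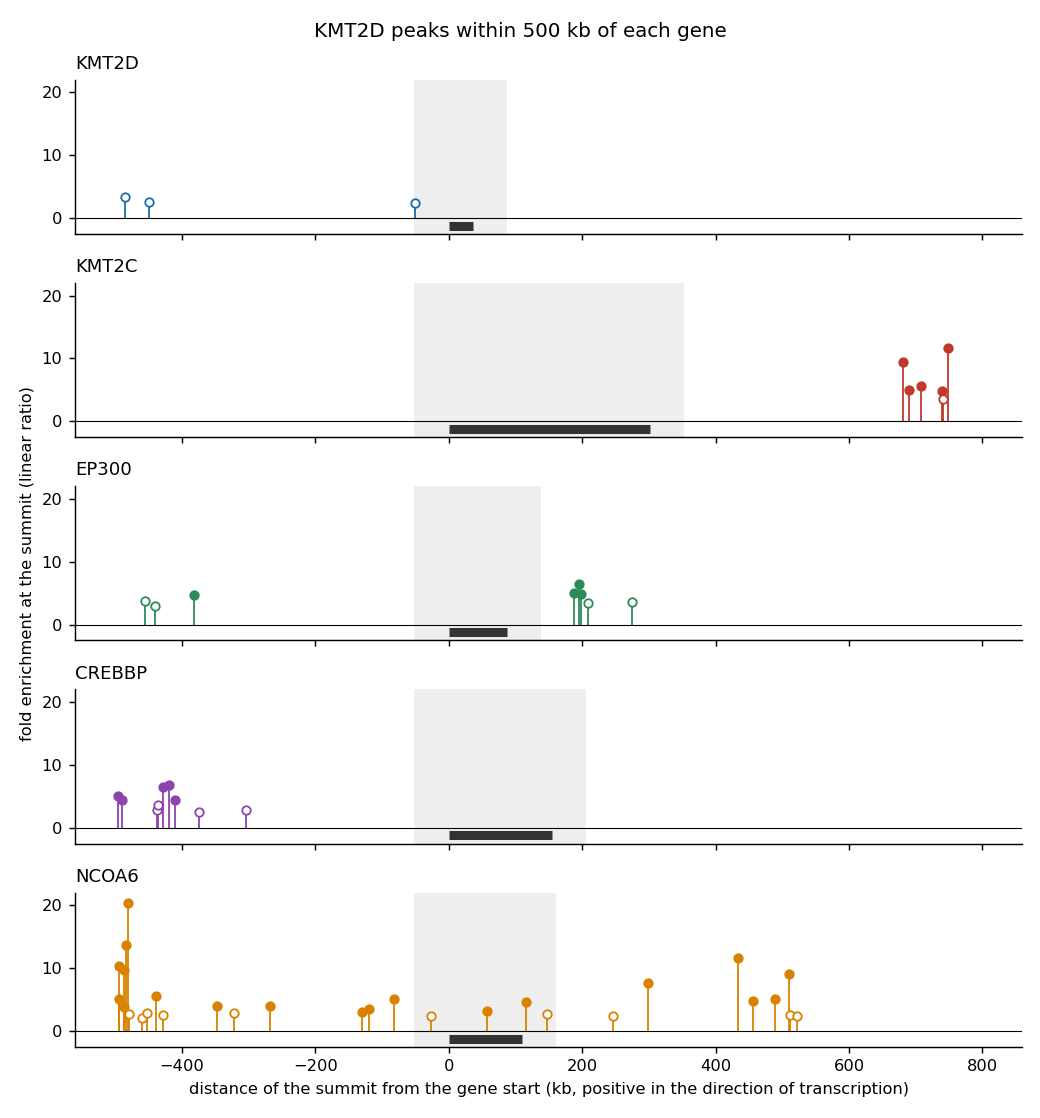
Peaks within 500 kb of each gene span, plotted by the distance of the summit from the gene start (x axis, kb, positive in the direction of transcription) and fold enrichment (y axis, linear ratio). Filled points have a q-value of at most 0.05, black bars are the genes and grey areas the windows of 50 kb around them. The grey area holds 4 peaks at NCOA6 and none at the other 4 genes, since the KMT2D point at its edge lies 464 bp outside.

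NCOA6, a nuclear receptor coactivator, had peaks on both sides of the gene and 1 inside it. The strongest of the 4 lay 6.05 kb beyond the 3′ end, at chromosome 20 positions 33296519 to 33297361. It had a fold enrichment of 4.54 and 41 ChIP fragments over the summit (exact Poisson 95% interval 29.4 to 55.6), with a q-value of 9.93e-05. This was the only one of the 4 above the median fold enrichment of 4.01 over chromosomes 1 to 22 and X, and 61.3% of those peaks were lower.

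The peak inside the gene lay at positions 33356005 to 33356554, 56.9 kb downstream of the start. It had the most fragments of the 4, 55 (41.4 to 71.6), but a fold enrichment of 3.13, and its q-value was 0.00371. Without a GRCh37 annotation it was not assigned to an exon or an intron.

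The other 2 peaks were weak. That at positions 33264661 to 33265293, 37.9 kb beyond the 3′ end, had 32 fragments (21.9 to 45.2), a fold enrichment of 2.64 and a q-value of 0.324. The upstream peak, at positions 33440115 to 33440301, was the one nearest to the NCOA6 start. It had 18 fragments (10.7 to 28.4), where 16 were needed at its background, a fold enrichment of 2.40 and a q-value of 1. Only 2.25% of the list, counted on chromosomes 1 to 22 and X, had a lower fold enrichment than this last one.

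Thus 2 of the 4 NCOA6 peaks reached a q-value of at most 0.05. Over chromosomes 1 to 22 and X 58.8% of peaks did so, and on chromosome 20 66.5%. The count of 2 is near that background. The widths of the 4 peaks were 633, 843, 550 and 187 bp from the 3′ to the 5′ side of the gene, against a median of 344 bp. The upstream peak was only 4 bp wider than the narrowest peaks in the list, at 183 bp.

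By their medians, the 4 peaks had more fragments but a lower fold enrichment than the list, although the upstream peak had fewer fragments and the strongest peak a higher fold enrichment. The median was 36.5 fragments in the 4 and 25 over chromosomes 1 to 22 and X, and the median fold enrichment was 2.88 and 4.01. The local background, which MACS2 takes from the control, moved with this. From the 3′ to the 5′ side it was 3.65, 2.43, 5.48 and 2.08 times the genome-wide level. At these backgrounds 24, 19, 32 and 16 fragments were needed to enter the list, against 11 at the genome-wide level. Of these 4 numbers only 32 is above the list median of 25 fragments. The part of the p-value threshold in the higher number of fragments was not tested. A raised background, of at least 2 times that level, was found at 4 of 4 peaks, at 23.1% of peaks on chromosome 20 and at 15.2% of those on chromosomes 1 to 22 and X. Fragments exceeded this background 3.04, 5.87, 3.49 and 3.01 times, without the pseudocount that the fold enrichment contains, against a median of 6.25 times over chromosomes 1 to 22 and X. The part of the raised background in these 4 peaks was not tested, and with raised peaks left out the NCOA6 window held 0 peaks.

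**Figure D2:**
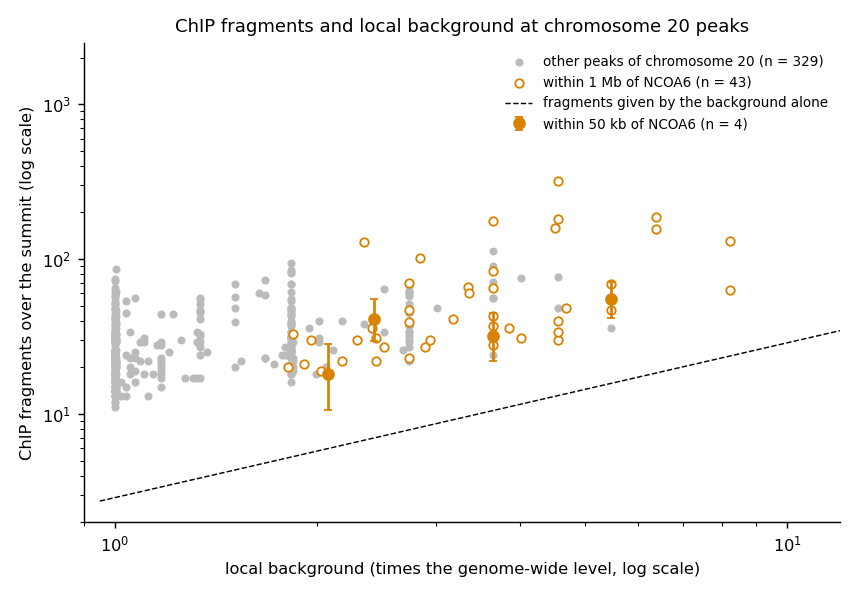
ChIP fragments over the summit (y axis, log scale) against the local background (x axis, times the genome-wide level, log scale) for the 376 peaks of chromosome 20. Filled points are the 4 peaks within 50 kb of NCOA6 with exact 95% Poisson intervals, open points are other peaks within 1 Mb, and the dashed line is the number of fragments that the background alone gives. All 4 filled points lie at a background of at least 2.08. Every listed peak lies above the line, because peak calling requires it.

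The raised background was not particular to the NCOA6 window. It held without a break over 26 neighbouring peaks of chromosome 20, from position 32377273 to 33851458, with a median of 3.65 times the genome-wide level and a range of 2.03 to 8.22. Within 1 Mb of NCOA6 there were 47 peaks, of which 43 had a raised background. Their median background was 3.37, against 1.07 at the other 329 peaks of the chromosome. Median fold enrichment was 3.48 within 1 Mb and 4.46 at the other peaks.

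Peaks around NCOA6 were more frequent than the mean density of the chromosome gives, mostly at a raised background. The window of 210 kb held 19.0 per Mb (exact Poisson 95% interval 5.19 to 48.8), against 6.00 per Mb on chromosome 20. It exceeded the rest of the chromosome 3.20 times, with an interval of 0.866 to 8.25 that includes 1. Of consecutive windows of this length on chromosome 20, 36.2% held at least 1 peak. Within 250 kb there were 9 peaks and within 500 kb 29, where the mean density of the chromosome gives 3.66 and 6.66. Of the 29, 28 had a raised background. Of the 29, 19 had a q-value of at most 0.05, against 66.5% of all peaks on chromosome 20. The highest fold enrichment among the 29 was 20.4, at positions 33892659 to 33894990. That peak was 480.7 kb upstream of the NCOA6 start and far outside the window.

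In the order of protein-coding genes in RefSeq, GGT7 and ACSS2 follow NCOA6 on its 5′ side, and TP53INP2 and PIGU on its 3′ side. ACSS2 makes acetyl-CoA from acetate, TP53INP2 acts in autophagy and PIGU in the attachment of membrane anchors. The peaks within 50 kb may lie in or near such neighbours as well as NCOA6. Which gene a peak acts on cannot be read from distance, and no neighbour was assigned a peak.

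KMT2D came closest to carrying a peak among the other 4 genes. The nearest one lay upstream of its start, at chromosome 12 positions 49499390 to 49499576. Its summit was 50.5 kb from the span, which is 464 bp outside the window and within the error of the spans. The members farthest from their gene were the NCOA6 peaks at 37.9 and 27.2 kb from the span, well within the limit of 50 kb, with fold enrichments of 2.64 and 2.40. The KMT2D peak had 17 fragments (9.90 to 27.2), where 16 were needed at its background of 1.83 times the genome-wide level, a fold enrichment of 2.49 and a q-value of 1.

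On the 3′ side of KMT2D no peak was listed for 693.5 kb. The next, at positions 48719440 to 48719837, had 14 fragments, a fold enrichment of 3.02 and a q-value of 0.994. Within 1 Mb of KMT2D there were 4 peaks, where the mean density of chromosome 12 gives 10.4. Of the 4, 0 had a q-value of at most 0.05, against 58.8% of peaks on chromosomes 1 to 22 and X. The gene next to KMT2D on its 3′ side is PRKAG1, which encodes a regulatory subunit of the energy sensor AMPK, and on its 5′ side RHEBL1.

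KMT2C lay in the longest stretch without peaks. The nearest peak was 380.6 kb beyond its 3′ end, at chromosome 7 positions 151451251 to 151451774, and it was strong, with 49 fragments (36.3 to 64.8), a fold enrichment of 9.38 and a q-value of 3.30e-13. On the 5′ side the next peak was 2662 kb away, with 29 fragments and a fold enrichment of 5.74. The distance between these 2 summits was 3.34 Mb, and 9 of the 695 gaps between neighbouring summits of chromosome 7 (1.29%) were at least as long, this one included. Such long gaps are few but cover much of the chromosome, 23.2% of its length. Within 500 kb there were 6 peaks, all on the 3′ side, and the highest fold enrichment was 11.7. Of the 6, 5 had a q-value of at most 0.05, against 58.8% over chromosomes 1 to 22 and X.

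EP300 stood on chromosome 22, the densest in peaks of the 5 chromosomes, with 348 in all and 9.97 per Mb. Its nearest peak lay 100.2 kb beyond the 3′ end, at positions 41676134 to 41676431, with 25 fragments (16.2 to 36.9), a fold enrichment of 5.02 and a q-value of 0.000816. A group of 5 peaks lay within 250 kb on that side, with fold enrichments of up to 6.47. Of the 5, 3 had a q-value of at most 0.05, against 58.8% over chromosomes 1 to 22 and X. On the 5′ side the nearest summit was 381.3 kb away, with 23 fragments and a fold enrichment of 4.64. The gap of 568.5 kb that held EP300 was matched or exceeded by 11 of 347 gaps of the chromosome (3.17%).

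CREBBP, the relative of EP300, lay in a gap of 995.7 kb, and 18 of the 502 gaps of chromosome 16 (3.59%) were at least as long. The peaks on either side of it were weak. That on the 5′ side, 303.8 kb from the span at positions 4233645 to 4233834, had 13 fragments and a q-value of 1, and that on the 3′ side, 536.9 kb away at positions 3237878 to 3238236, had 14 fragments and a q-value of 0.994. Their fold enrichments were 2.84 and 3.02. Farther out peaks became frequent, with 27 within 1 Mb, where the mean density of the chromosome gives 12.1. Of the 27, 12 had a q-value of at most 0.05, against 58.8% over chromosomes 1 to 22 and X. The local background at these flanking peaks of CREBBP and KMT2C was 1.00 times the genome-wide level, and at those of EP300 it was 1.00 on both sides.

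**Figure D3:**
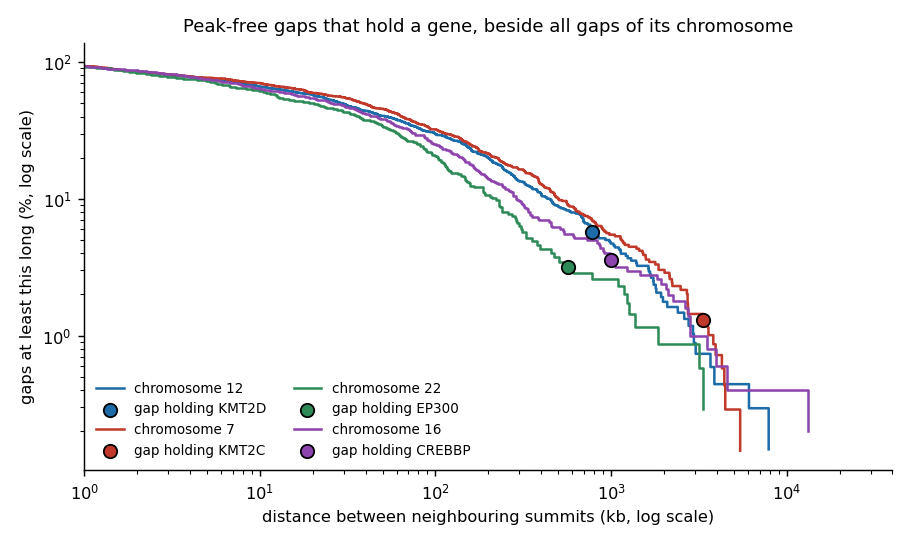
Share of gaps between neighbouring summits that are at least as long as the value on the x axis (kb), for the chromosomes of the 4 genes without a peak, on log scales. Points mark the gap that holds each gene. The gaps run from 568.5 kb for EP300 to 3.34 Mb for KMT2C and are matched by 1.29 to 5.74% of the gaps of their chromosomes.

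The gap around KMT2D was 780.0 kb, and 39 of 680 gaps of chromosome 12 (5.74%) were at least as long. By share of chromosome length, gaps of at least these sizes covered 57.5% of chromosome 12, 47.2% of chromosome 22 and 58.1% of chromosome 16. A position chosen without regard to genes would thus often fall in such a gap. These lengths, and the windows below, run from first to last summit of a chromosome. They were not matched to genes or to sequence where reads align uniquely.

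An empty window was common for the same reason. Among consecutive windows of the same length, at least 1 peak was found in 28.0% on chromosome 12 (length of the KMT2D window), 47.7% on chromosome 7 (KMT2C), 51.1% on chromosome 22 (EP300) and 38.6% on chromosome 16 (CREBBP). Each of the 4 empty windows alone was too short to show a low density. A count of 0 allows up to 22.1 peaks per Mb at KMT2D, 7.48 at KMT2C, 16.0 at EP300 and 11.8 at CREBBP, all above the 5.09, 4.38, 9.97 and 5.60 per Mb of their chromosomes.

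Over all 5 genes, NCOA6 included, the windows held 3.36 peaks per Mb against 5.43 in the rest of the 5 chromosomes, a ratio of 0.620 with an interval of 0.169 to 1.59 that includes 1. Because peaks gather in groups, such counting intervals are too narrow. Neither this ratio nor the share of empty windows given above sets these genes apart, and neither was matched to windows around other genes.

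**Figure D4:**
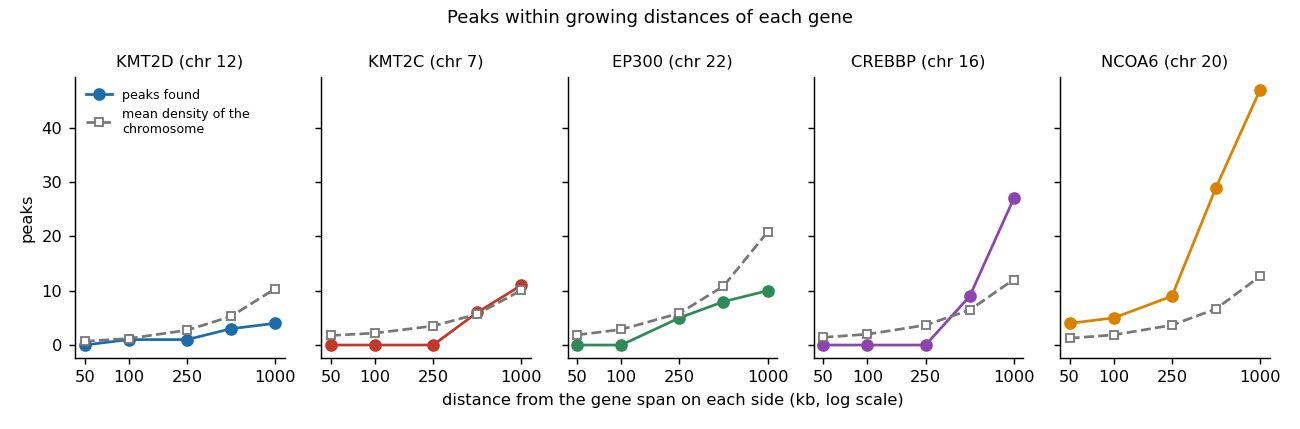
Number of peaks (y axis) within 50, 100, 250, 500 and 1000 kb of each gene span on either side (x axis, log scale). Coloured points are the peaks found and grey squares the number that the mean density of the chromosome gives. NCOA6 lies above the grey line at every distance, with 47 peaks within 1000 kb, and KMT2D below it, with 4.

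The related genes had different numbers of peaks around them. Within 1 Mb there were 4 peaks at KMT2D and 11 at KMT2C, where the mean densities of their chromosomes give 10.4 and 10.1. There were 10 at EP300 and 27 at CREBBP, where they give 20.8 and 12.1. The numbers were not tested against each other, since 1 library was at hand.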

How the data were processed

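ChIP-seq of KMT2D in KMT2D-WT SCC23 cells was 1 of 14 samples, and only its peak list was analysed. The other 13, among them the input and all KMT2D-KO samples, were not analysed here. Per the study's methods, the authors aligned single-end reads to hg19 (GRCh37) using Bowtie2, retained unique alignments and ran MACS2 at a p-value threshold of 0.01. The control is not given in the sources used here, although the scaling in the values shows that one was used. Unique alignment drops reads from repeated sequence. The deposited fold enrichment is a ratio at the summit, scaled ChIP pileup plus 1 over local background plus 1. The authors also deposited a −log10 p-value, a −log10 q-value and a score derived from the p-value.

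Fold enrichment and p-value together gave the number of ChIP fragments at the summit and the background there (scale 0.381, genome-wide level 1.10 after scaling). The −log10 p recomputed from them was within 0.000999 of the deposited value at all 13808 peaks, and the step was tested on simulated data. Background was termed raised from 2 times the genome-wide level.

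The members and lists were chosen with earlier results of these data known. The runs of equal windows, gaps, growing distances, stretch of raised background and promoter motifs were chosen after the values or sequences were seen. The named items were the 5 genes, every peak of a window with 10 or fewer, and neighbouring genes by name. Densities are over the length from first to last summit of a chromosome, on chromosomes 1 to 22 and X. Intervals are exact 95% Poisson intervals, or exact conditional ones for ratios, and a count of 0 was given a limit of 3 peaks. They cover counting error only. With 1 library no test across samples was made, and the total number of reads is not in the list. Alternatives were q-value thresholds, other flanks, any overlap, no raised background, other distances to the start and other stitching gaps. GRCh38 annotation gave strands and neighbours only, and no coordinate was converted. Other subunits of the KMT2C and KMT2D complexes were not analysed here. Software was matplotlib 3.10.9, scipy 1.17.1, numpy 2.4.6 and pandas 2.3.3 under Python 3.11.15.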

Additional observations from a re-analysis of the deposited data

How the results depend on the processing

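The 4 peaks in the windows became 2 at a q-value of at most 0.05, 2 at 0.01, 2 with flanks of 25 kb, 1 with flanks of 0 kb and 0 once peaks of raised background were removed. Fewer peaks or shorter windows enter these alternatives by construction. The density ratio of 0.620 became 0 without peaks of raised background, because all 4 members were such peaks, and the median fold enrichment then had no value. The exact 95% interval of 0 to 0.67 lay below 1, but the filter took out every member, so no low density is read from it. Under the other alternatives the ratio was 0.267 to 0.771, with intervals that included 1. These were 6 of 25 alternative values, the other 19 differed by less than the limits set for them, and 0 reversed. Widening the spans by 500 bp, chosen after seeing the data, gave 5 peaks, since it took in the peak upstream of KMT2D. The windows of KMT2C, EP300 and CREBBP held 0 peaks under all 8 alternatives for the number of peaks. Only flanks of 100 kb, any overlap and widened spans could have added a peak there, since the others can only remove peaks. No start had a summit within 1, 2 or 5 kb, and beside the 2 kb used only 5 kb could have added one. Clusters of at least 3 peaks touching a window numbered 0 with a shorter and a longer stitching gap and at a q-value of at most 0.05. Of these changes, only the longer gap could have formed one. No paired analysis was possible because the comparisons rest on a single library. Whether the 4 peaks recur in another library, and whether weaker binding at the other 4 genes lies under the threshold, was not tested.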
